A study of Mus musculus with 12 samples.

Results

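Promoter to distal intergenic contacts join the start of a gene with a stretch of the genome that holds no gene. In each of 6 tables of chromatin interactions, they were taken as the pairs of anchors on 1 autosome, with midpoints 20 kb to 2 Mb apart, in which one anchor overlapped a window of 1 kb on either side of a protein-coding transcription start site of mm10. The other anchor had to overlap no annotated gene of any kind and no start site within 5 kb. An anchor is a run of restriction fragments that holds many ends of read pairs, and the score of an interaction is the number of read pairs that join its 2 anchors. By this rule, 287372 of the 10267665 listed interactions of the ESC Hi-C table were promoter to distal intergenic contacts, and 280365 of 10741787 in NCC Hi-C. FGFR1 HiChIP gave 44961 of 1930320 in ESC and 49800 of 2401031 in NCC, and CTCF HiChIP gave 20490 of 887334 in ESC and 19349 of 847981 in NCC.

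The cells were E14Tg2A mouse embryonic stem cells (ESC), kept with LIF at 100 U/mL, and neuronal committed cells (NCC), obtained from them with 1 μM retinoic acid in medium without LIF over 48 h. Both groups come from this 1 cell line. Hi-C measures contacts between all restriction fragments, and HiChIP measures those recovered with an antibody, here against FGFR1, a growth factor receptor that also acts in the nucleus, or CTCF. The authors merged 2 biological replicates of each assay in each cell type into 1 table, so that 12 samples gave 6 libraries. No spread between replicates can be given, no p-value is printed, and each interval below covers counting error only. The spread over the 19 autosomes is given as a description, since autosomes of 1 library are not replicates. The tables hold no expression values, so the labelled cell types could not be checked against their marker genes, and a contact made in more cells cannot be told apart from one made more often in each cell.

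Genes are often controlled by enhancers that lie far from them in intergenic sequence and reach the promoter by folding of the chromatin fibre. CTCF binds an asymmetric sequence and halts the cohesin complex as it extrudes loops, and loops are known to form mostly between CTCF sites that point toward each other. Stem cells are known for a distal enhancer cluster downstream of Sox2, a core pluripotency factor, and retinoic acid, through its nuclear receptors, is known to switch on the Hox clusters.

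The sequences below show how the direction of a match was read. The result on direction described further on rests on all distal anchors with matches on a single strand. They are the 6 matches to the CTCF consensus found in the distal anchors of the 3 strongest contacts over at least 100 kb of each library, and each was read from GRCm38 (mm10), 5′ to 3′ on the strand of the match, with the match in capitals and 30 bases on either side in lower case. In the first 5 the match points toward the promoter named, and in the last it points away from it. Both Smoc2 matches lie in the same distal anchor and point in opposite directions, so that anchor was counted in neither direction. By the rule no annotated gene overlaps any of these anchors, and the nearest protein-coding genes to them are Cbx5, F11, 1700001O22Rik, Fbln2 and, for both of the last, Smoc2 itself.

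Hoxc8 and Hoxc9, chr15:103178334-103178405, minus strand: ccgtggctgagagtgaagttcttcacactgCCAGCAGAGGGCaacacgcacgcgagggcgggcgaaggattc
Mtnr1a, chr8:45236749-45236820, minus strand: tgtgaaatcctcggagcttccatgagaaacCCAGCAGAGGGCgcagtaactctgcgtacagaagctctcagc
Ptpa, chr2:30776124-30776195, minus strand: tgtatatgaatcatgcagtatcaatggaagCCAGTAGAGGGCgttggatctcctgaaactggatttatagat
Wnt7a, chr6:91286818-91286889, plus strand: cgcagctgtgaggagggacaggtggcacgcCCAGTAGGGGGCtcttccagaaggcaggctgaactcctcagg
Smoc2, chr17:14520701-14520772, minus strand: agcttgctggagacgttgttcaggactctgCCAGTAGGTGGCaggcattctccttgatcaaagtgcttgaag
Smoc2, chr17:14524579-14524650, plus strand: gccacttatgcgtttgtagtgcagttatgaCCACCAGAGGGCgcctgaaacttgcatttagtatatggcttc

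The CTCF consensus, searched on both strands, matched 12245 sites on the autosomes. Among distal intergenic anchors, 2.11% held a match in ESC Hi-C and 2.12% in NCC Hi-C, 1.77% and 1.56% in FGFR1 HiChIP, and 2.06% and 2.14% in CTCF HiChIP. Promoter anchors held one more often, in 5.15% and 4.99% of Hi-C anchors and in 3.41% to 3.90% of HiChIP anchors. Anchors with a match were also longer than those without, with a median of 3978 against 2585 bp for distal anchors in ESC Hi-C. A match is a run of letters and not a measured binding site.

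The libraries differed in depth by more than 20-fold. Between 20 kb and 2 Mb the Hi-C tables held 8623236 (ESC) and 8627993 (NCC) autosomal read pairs, against 1069841 and 1280593 for FGFR1 HiChIP and 439910 and 408993 for CTCF HiChIP. Most promoter to distal intergenic interactions rested on a single read pair, 69.6% and 69.7% in Hi-C, 88.8% and 88.7% in FGFR1 HiChIP and 91.8% and 92.0% in CTCF HiChIP. Anchors at promoters were longer and drew more read ends than distal ones. In ESC Hi-C the median promoter anchor was 4071 bp long with 264 ends, against 2604 bp and 82 ends for distal anchors, and in the HiChIP tables medians were 2510 to 2849 bp against 2147 to 2348 bp.

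Promoter to distal intergenic contacts were more frequent than distance alone gave in all 6 libraries. They took 512506 and 502755 read pairs in Hi-C of ESC and NCC, 51642 and 57277 in FGFR1 HiChIP, and 22538 and 21283 in CTCF HiChIP. These were 5.94% and 5.83% of the autosomal read pairs of that range in Hi-C, 4.83% and 4.47% in FGFR1 HiChIP, and 5.12% and 5.20% in CTCF HiChIP. The expected number was the sum, over all possible pairs of one listed promoter anchor and one listed distal anchor, of the mean number of read pairs per possible pair at that distance in the same library. Observed over expected was 1.43 (95% interval 1.42 to 1.43) in ESC Hi-C and 1.42 (1.41 to 1.42) in NCC Hi-C. It was 1.24 (1.23 to 1.25) and 1.21 (1.20 to 1.22) in FGFR1 HiChIP, and 1.24 (1.23 to 1.26) and 1.27 (1.25 to 1.29) in CTCF HiChIP. Every autosome of every library was above 1, from 1.09 on the lowest to 1.64 on the highest.

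The excess over distance depended on how anchors were weighed. With the length of both anchors in the expectation it shrank to 1.16 and 1.15 in Hi-C, 1.11 and 1.09 in FGFR1 HiChIP and 1.13 and 1.17 in CTCF HiChIP. With the strength of both anchors (their read ends) in the expectation it turned into a deficit, 0.921 and 0.930 in Hi-C, 0.888 and 0.887 in FGFR1 HiChIP and 0.897 and 0.889 in CTCF HiChIP. Contacts between promoters behaved alike on a larger scale, at 3.25 and 3.08 in Hi-C from distance and 0.709 and 0.724 with strength. Contacts between distal anchors ran the other way, at 0.619 and 0.630 from distance and 1.63 and 1.58 with strength. Promoter to distal contacts lay between these classes under all 3 expectations in the 6 libraries.

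**Figure D1:**
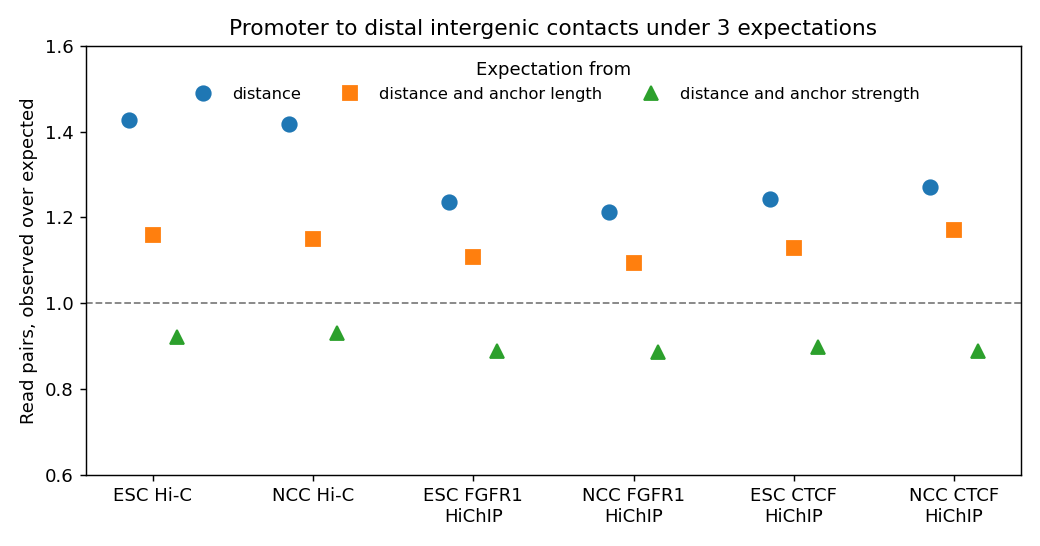
Observed over expected read pairs of promoter to distal intergenic contacts (vertical axis) in the 6 libraries (horizontal axis), with the expectation taken from distance alone (circles), from distance and anchor length (squares) or from distance and anchor strength (triangles); the dashed line is 1. From distance all libraries lie between 1.21 and 1.43, and with anchor strength all lie below 1.

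The excess over distance was lower beyond 200 kb than at shorter range. In ESC Hi-C observed over expected was 1.47 at 20 to 50 kb, 1.50 at 50 to 100 kb, 1.41 at 200 to 500 kb and 1.32 at 1000 to 2000 kb. NCC Hi-C ran from 1.46 through 1.48 and 1.40 to 1.31 over the same classes. Between the nearest and the farthest class, ESC went from 1.27 to 1.15 in FGFR1 HiChIP and from 1.30 to 1.16 in CTCF HiChIP. NCC went from 1.25 to 1.07 and from 1.30 to 1.14 with the same antibodies. The 4 HiChIP libraries thus lay below Hi-C in each distance class, and their intervals did not overlap those of Hi-C of the same cell type. The median distance of a read pair in this class was 172.6 kb and 172.3 kb in Hi-C, 188.8 kb and 198.0 kb in FGFR1 HiChIP and 181.5 kb and 185.2 kb in CTCF HiChIP, against 144.9 to 169.0 kb over all classes.

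**Figure D2:**
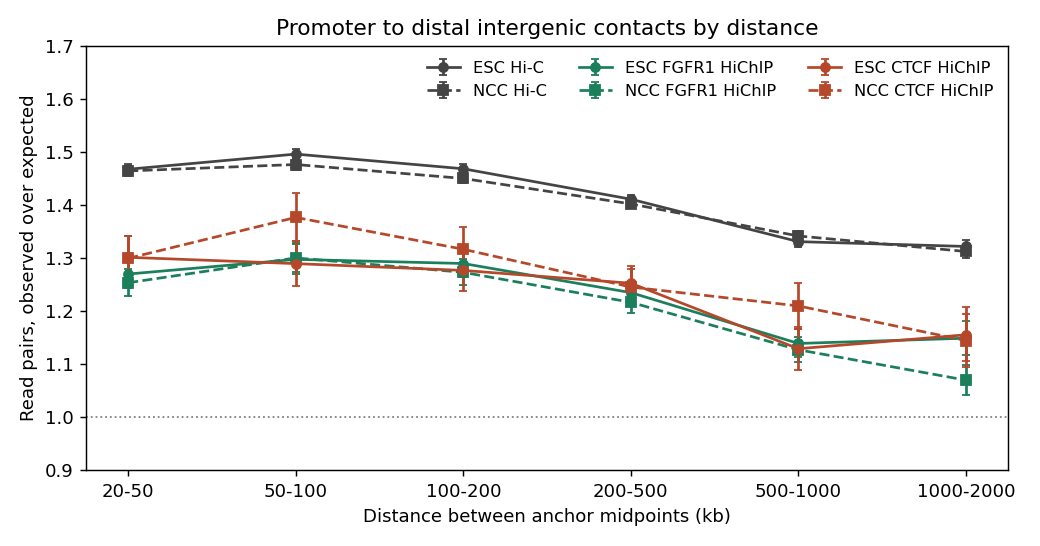
Observed over expected read pairs of promoter to distal intergenic contacts (vertical axis, starting at 0.9) by distance class in kb (horizontal axis) in the 6 libraries, with 95% Poisson intervals as bars; circles and solid lines are ESC, squares and dashed lines NCC. Both Hi-C lines lie above the HiChIP lines in every class, and all lines are lower at 1000 to 2000 kb than at 50 to 100 kb.

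The question of what changed between ESC and NCC was asked of each assay. The log2 ratio of observed over expected, NCC over ESC, was -0.0088 in Hi-C (95% interval -0.014 to -0.0032), with NCC higher on 8 of 19 autosomes. It was -0.028 in FGFR1 HiChIP, also with 8 of 19 higher, and 0.031 in CTCF HiChIP, with 14 of 19 higher. Single autosomes in Hi-C ranged from -0.064 to 0.064, so the whole class differed between the cell types by less than its autosomes did. The sign in each assay turned under at least 1 other setting, given in the closing section.

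HiChIP against Hi-C in the same cells showed lower values for both antibodies. The log2 ratio was -0.21 in ESC and -0.22 in NCC for FGFR1, and -0.20 in ESC and -0.16 in NCC for CTCF. These differences shrank with anchor length in the expectation, to -0.067 and -0.072 for FGFR1 and to -0.038 for CTCF in ESC, and reversed to 0.028 for CTCF in NCC. Anchors were called in each library on its own, and Hi-C, the deeper assay, had the longer promoter anchors, so depth and antibody cannot be told apart here.

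Contacts were more frequent where the CTCF consensus in the distal anchor pointed toward the promoter than where it pointed away. Observed over expected was 3.14 toward and 2.13 away in ESC Hi-C, and 3.22 and 2.09 in NCC Hi-C. In FGFR1 HiChIP it was 2.20 and 1.55 in ESC and 2.42 and 1.42 in NCC, and in CTCF HiChIP 2.54 and 1.47 in ESC and 2.64 and 1.58 in NCC. Distal anchors without a match lay lower still, at 1.19 to 1.38. Distal anchors with matches on both strands were counted in neither direction.

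The ratio of toward over away was 1.48 (1.45 to 1.51) in ESC Hi-C and 1.54 (1.51 to 1.57) in NCC Hi-C, 1.42 (1.31 to 1.54) and 1.70 (1.57 to 1.85) in FGFR1 HiChIP, and 1.73 (1.54 to 1.93) and 1.67 (1.50 to 1.87) in CTCF HiChIP. Toward was higher on all 19 autosomes in both Hi-C libraries and in NCC FGFR1 HiChIP, on 18 in ESC FGFR1 and NCC CTCF HiChIP, and on 17 in ESC CTCF HiChIP. This ratio barely moved with the expectation, from 1.43 to 1.67 with anchor strength and from 1.44 to 1.75 with anchor length over the 6 libraries. By distance it was highest between 50 and 500 kb in all 6 libraries. In ESC Hi-C it was 1.23 at 20 to 50 kb, 1.78 at 100 to 200 kb and 1.20 at 1000 to 2000 kb. NCC FGFR1 HiChIP went from 1.56 to 2.13 and 1.27 over the same classes, and NCC CTCF HiChIP from 1.38 to 2.26 and 1.36. At 1000 to 2000 kb the intervals of the 4 HiChIP libraries included 1.

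The presence of a match, in contrast to its direction, depended on the expectation. With a match against without, the ratio was 1.94 and 1.97 in Hi-C, 1.54 and 1.63 in FGFR1 HiChIP and 1.66 and 1.70 in CTCF HiChIP. It became 1.30 to 1.50 with anchor length and 0.929 to 1.10 with anchor strength.

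**Figure D3:**
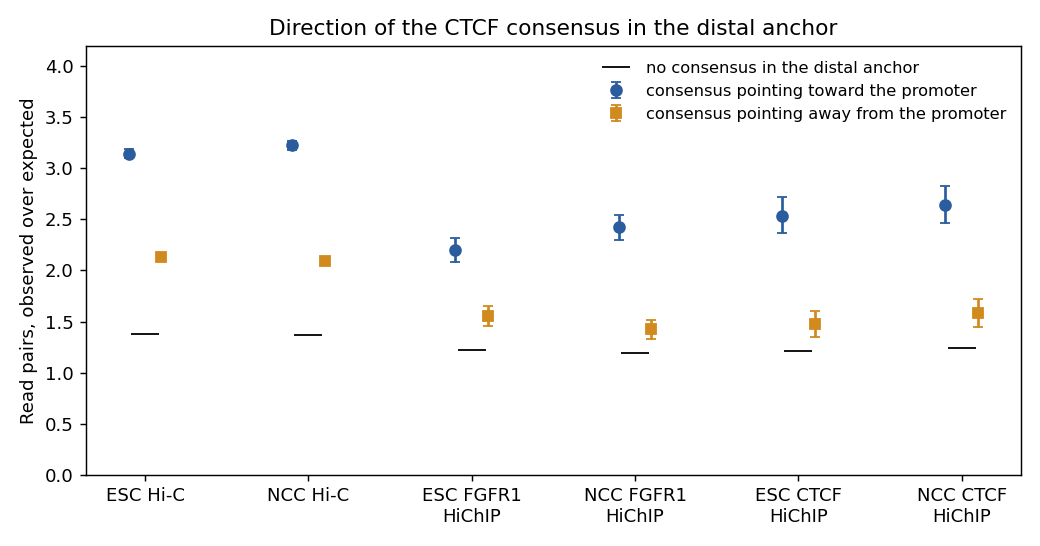
Observed over expected read pairs of promoter to distal intergenic contacts (vertical axis) in the 6 libraries (horizontal axis), for distal anchors whose CTCF consensus points toward the promoter (circles), away from it (squares) or that hold no match (black lines), with 95% Poisson intervals as bars on the circles and squares. The circles lie above the squares in all 6 libraries, at 2.20 to 3.22 against 1.42 to 2.13.

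A distal anchor that faced a promoter with no other protein-coding promoter between them was in contact with it more often, and from 100 kb on this grew with distance. Below 100 kb the ratio was 0.991 at 50 to 100 kb in ESC CTCF HiChIP and 0.991 at 20 to 50 kb in NCC CTCF HiChIP, and it was above 1 in the other libraries. In ESC Hi-C observed over expected with no promoter between was 1.53 at 20 to 50 kb, 1.77 at 200 to 500 kb, 2.10 at 500 to 1000 kb and 2.48 at 1000 to 2000 kb. With 1 or more promoters between it was 1.34, 1.37, 1.30 and 1.31 in these classes. Over 200 to 2000 kb, contacts with none between were the more frequent on all 19 autosomes in 5 libraries and on 18 in ESC CTCF HiChIP. The direction held there with anchor length or strength in the expectation, while at 20 to 50 kb the ratio of 1.14 in ESC Hi-C became 0.957 with anchor length and was below 1 with it in the other libraries too.

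In these long contacts with no promoter between, NCC lay above ESC in all 3 assays from distance alone. Over 200 to 2000 kb, observed over expected was 1.85 in ESC and 2.09 in NCC by Hi-C, a log2 ratio of 0.17 (0.15 to 0.20), with NCC higher on 17 of 19 autosomes. FGFR1 HiChIP gave 1.77 and 1.97, a log2 ratio of 0.16 (0.081 to 0.23), with 16 of 19 higher. CTCF HiChIP gave 1.81 and 2.11, a log2 ratio of 0.22 (0.10 to 0.34), with 15 of 19 higher. With 1 or more promoters between, the log2 ratios were smaller and negative, with NCC higher on 8, 5 and 11 autosomes. They were -0.021 (-0.030 to -0.013) in Hi-C, -0.066 (-0.092 to -0.040) in FGFR1 HiChIP and -0.0053 (-0.047 to 0.036) in CTCF HiChIP. NCC stayed above ESC in each class beyond 200 kb with anchor length in the expectation, as in Hi-C at 500 to 1000 kb, with 1.92 in ESC and 2.32 in NCC. With anchor strength it stayed above in Hi-C and CTCF HiChIP and turned in FGFR1 HiChIP, where the values at 500 to 1000 kb were 2.19 in ESC and 1.95 in NCC. The split by distance at 200 kb was chosen after the values were seen.

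**Figure D4:**
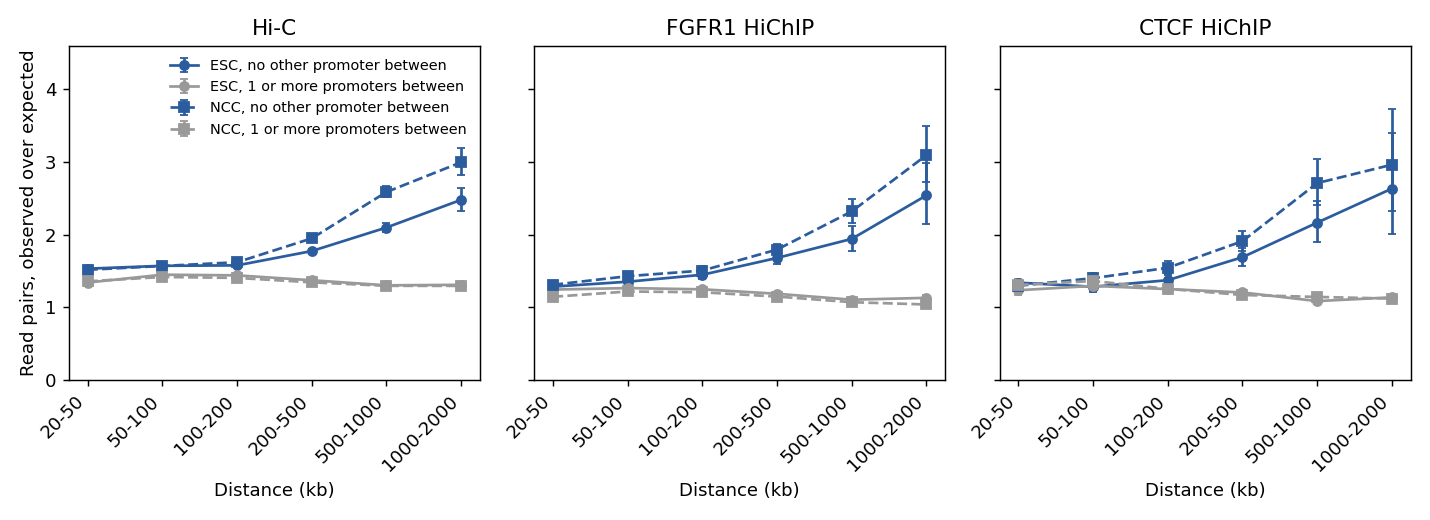
Observed over expected read pairs of promoter to distal intergenic contacts (vertical axis) by distance class in kb (horizontal axis) in Hi-C, FGFR1 HiChIP and CTCF HiChIP (panels), split by whether another protein-coding promoter lies between (grey, 1 or more; blue, none), with 95% Poisson intervals; circles and solid lines are ESC, squares and dashed lines NCC. The blue lines rise with distance from 100 kb on, and from 200 kb on NCC lies above ESC in all 3 panels, at 2.09 against 1.85 over 200 to 2000 kb in Hi-C.

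CpG-rich promoters, which belong mostly to housekeeping and developmental genes, were in contact with distal anchors more often than CpG-poor ones. A promoter anchor was CpG-rich where a window of 500 bp reached 50% GC and 0.6 of the expected CpG. Observed over expected was 1.68 against 1.17 in ESC Hi-C, a ratio of 1.43, and the ratio was 1.45 in NCC Hi-C and 1.23 to 1.30 in HiChIP. It was 1.16 to 1.29 with anchor length and 0.909 to 0.989 with anchor strength. The side of the gene made little difference, with ratios of upstream over downstream between 0.995 and 1.04.

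Most protein-coding genes had such a contact by Hi-C. Of 20807 autosomal genes, 17603 had at least 1 read pair in ESC and 17486 in NCC, with a median of 16 read pairs to 11 distal anchors in both. FGFR1 HiChIP reached 12115 and 12577 genes and CTCF HiChIP 8944 and 8712, with medians of 1 and 0 read pairs. The 10% of genes with most contacts held 40.5% and 41.4% of the read pairs in Hi-C. From the other side, 73.2% and 74.5% of listed distal anchors touched a promoter in Hi-C, 35.3% and 35.2% in FGFR1 HiChIP and 23.9% and 22.7% in CTCF HiChIP. The busiest distal anchor of ESC Hi-C, chr2:180306804-180324769, held 332 read pairs to 35 promoter anchors, and that of NCC Hi-C, chr10:77187359-77195217, held 363 to 39.

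Among the genes with the most contacts over both Hi-C libraries were Spsb1, Sept9, Col18a1, Rxra, Mn1, Pcdh1, Vegfa, Nuak1 and Coro2b. Spsb1, which encodes a ubiquitin ligase adaptor, held 556 read pairs in ESC and 542 in NCC. Rxra, the partner receptor of the retinoic acid receptors, held 542 and 388. Vegfa, the growth factor of blood vessels, held 370 and 433. Of the genes named, Col18a1, Mn1, Vegfa and Pcdh1 stood farthest above their distance expectation. In ESC they were at 10.6, 13.5, 9.98 and 9.16, and in NCC at 10.7, 12.5, 12.6 and 12.5. Coro2b, with 336 and 382 read pairs to 188 and 201 distal anchors, was at 1.69 and 2.42. The promoter anchors of these genes were long, from 17067 bp in sum for Vegfa to 57915 bp for Sept9 in ESC Hi-C.

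Per gene, NCC was set against ESC with each library scaled to its autosomal read pairs of 20 kb to 2 Mb. A gene was tested where the smaller library would hold at least 10 read pairs under equal levels, and called where the scaled ratio was at least 2-fold and its exact 95% interval left out 1. In Hi-C 1126 of 13322 genes were called higher in NCC, a share of 8.45%, and 1424 lower, a share of 10.7%. In FGFR1 HiChIP 97 of 845 were called higher (11.5%) and 107 lower (12.7%), and in CTCF HiChIP 12 of 71 higher (16.9%) and 5 lower (7.04%). The counts per gene followed each other across genes, with a Spearman correlation of 0.82 over 16936 genes in Hi-C, 0.53 over 12131 in FGFR1 and 0.38 over 10059 in CTCF HiChIP, where genes are not independent and share their anchors. For observed over expected per gene, over the same genes, the correlation was lower. It was 0.66 in Hi-C, 0.23 in FGFR1 and 0.18 in CTCF HiChIP.

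The calls moved with the anchors listed at the promoter. Of the genes called higher in NCC by Hi-C with a promoter anchor in both libraries, 92.6% had longer promoter anchors in NCC, with medians of 9723 against 4012 bp. Of those called lower, 89.7% had longer ones in ESC, with medians of 9338 against 4238 bp. The 117 genes at 0 in ESC and called higher, and the 133 at 0 in NCC and called lower, had no promoter anchor listed in the library at 0. In FGFR1 HiChIP the shares were 95.4% and 90.3%. Across 13072 genes the log2 ratio of contacts and that of promoter anchor length had a Spearman correlation of 0.68 in Hi-C, and the part of anchor length in the calls was not tested.

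The highest ratios in Hi-C belonged to genes with no promoter anchor on one side. Usp3, Tbc1d5, Sost and Shc3 held 126, 108, 106 and 91 read pairs in NCC and 0 in ESC, and Enpp7, Gm11077, Mtnr1a, Ramp3 and Kcnn3 held 239, 224, 139, 137 and 114 in ESC and 0 in NCC. None of these genes had a listed promoter anchor in the library at 0, so no fold is given for them.

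**Figure D5:**
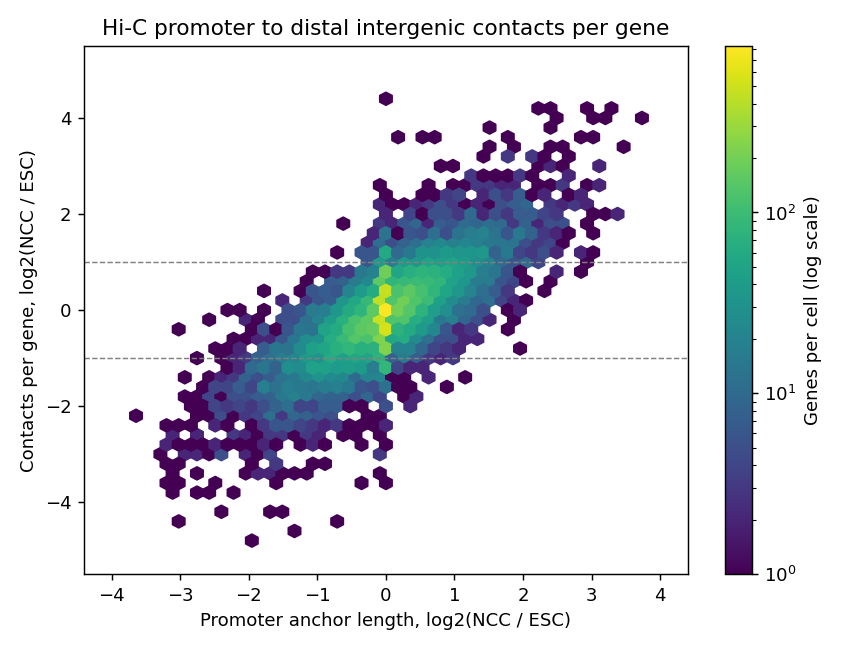
Hi-C promoter to distal intergenic contacts per gene, log2 of NCC over ESC (vertical axis), against the summed length of the gene's promoter anchors, log2 of NCC over ESC (horizontal axis), for tested genes with read pairs and anchors in both libraries; colour gives the number of genes per cell on a log scale and the dashed lines mark 2-fold. The cloud runs from lower left to upper right, with a Spearman correlation of 0.68.

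Genes whose promoter anchors had the same ends in both libraries are free of this difference at the promoter, and this set was chosen after the values were seen. By Hi-C 3119 of them were tested, and 55 were called higher (1.76%) and 101 lower (3.24%). In FGFR1 HiChIP 3 of 82 were called higher (3.66%) and 2 lower (2.44%), and in CTCF HiChIP 2 of 10 higher and none lower. The distal anchors of these genes could still differ.

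Irs1, the substrate of the insulin receptor, went from 17 read pairs in ESC to 70 in NCC by Hi-C, over the same promoter anchor of 4266 bp at chr1:82289601-82293867. That was 4.12-fold higher (2.40 to 7.46), and over anchors listed in both libraries it was 4.45-fold, with 11 and 49 read pairs. Its FGFR1 HiChIP read pairs were 6 and 13. Htr3b, a serotonin receptor subunit, went from 5 to 24 (4.80-fold, 1.79 to 16.1) and Wrb, a membrane insertion factor, from 10 to 38 (3.80-fold, 1.86 to 8.55), and both were also called over anchors listed in both libraries. Unc5c, a netrin receptor of growing axons, had 1 read pair in ESC and 20 in NCC, a ratio of 19.99 (3.20 to 828), of which 1 and 2 lay on distal anchors listed in both. Rab38, a small GTPase, had 6 and 29, of which 3 and 11 lay on anchors listed in both libraries, too few to be tested. The read ends at its promoter anchor were also higher in NCC, by 1.16 on the log2 scale.

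Among genes called lower in NCC, Aasdhppt and Kbtbd3, which share a promoter anchor on chromosome 9, fell from 24 to 3 read pairs (ratio 0.12, 0.024 to 0.41). Tomm40, the pore of the mitochondrial outer membrane translocase, fell from 20 to 3, and Smpd2, a sphingomyelinase, from 25 to 5. Over anchors listed in both libraries the ratios of these 4 were 0.25, 0.25, 0.43 and 0.33, with too few read pairs to be tested.

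The genes with the highest FGFR1 HiChIP ratios in NCC over ESC were Mbnl1, Tab2, Sox14, Gm4791 and Ndfip1, with 43, 37, 30, 28 and 27 read pairs in NCC and 0 in ESC. Mbnl1 encodes a splicing factor and Sox14 a neural transcription factor. Only Ndfip1 had a promoter anchor in ESC, of 2061 bp against 14568 bp in NCC, which puts it at least 7.52-fold higher against a floor of 3 read pairs. The lowest were Nfe2l2, Wscd2, 9230102O04Rik with 4930412O13Rik at the same anchors, and Grik3, with 32, 23, 22 and 22 read pairs in ESC and neither read pairs nor a promoter anchor in NCC. B230118H07Rik followed, with 49 and 6, and promoter anchors of 30819 and 3921 bp.

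By FGFR1 HiChIP the same-anchor genes called higher in NCC were Klf10, Klf12 and Nr2f2. Nr2f2, an orphan nuclear receptor that retinoic acid induces, held 17 read pairs in ESC and 49 in NCC, 2.41-fold (1.36 to 4.46), and over anchors listed in both libraries 11 and 36, 2.73-fold. By Hi-C it held 136 and 219 and by CTCF HiChIP 9 and 20, so NCC was higher in all 3 assays, with promoter anchors longer in NCC in Hi-C (15006 and 19767 bp) and CTCF HiChIP (8381 and 12504 bp). The Krüppel-like factor genes Klf10 and Klf12 held 6 and 19, and 7 and 22, without the same in Hi-C, at 103 and 105, and 71 and 61. Over anchors listed in both libraries each held 5 and 13 (ratio 2.17), too few read pairs to be tested. Fgf18, a ligand of FGF receptors, fell from 19 to 9 (ratio 0.40, 0.16 to 0.92) and was also called over anchors listed in both libraries, with 16 and 6. All read ends at its promoter anchor, scaled the same way, were lower in NCC too, at a log2 ratio of -0.74. Their part in the fall was not tested. Stat4, a cytokine signalling factor, fell from 22 to 11 and was not called over anchors listed in both libraries.

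CTCF HiChIP had few genes deep enough. With the same promoter anchor, Mn1 and Znhit3 each went from 5 to 17 read pairs, 3.66-fold (1.30 to 12.7), while by Hi-C they held 450 and 475, and 76 and 68. Over anchors listed in both libraries Mn1 held 1 and 14, a ratio of 15.1, and Znhit3 5 and 14, a ratio of 3.01, which is too few read pairs to be tested. The highest ratios among all genes were those of Camk2n1, with 33 read pairs in NCC and no promoter anchor in ESC, Sall4, a pluripotency factor, with 1 in ESC and 26 in NCC, Hoxd3 with 3 and 27, Nrep with 5 and 18, and Mn1. The promoter anchors of Sall4 measured 1477 and 4761 bp and those of Hoxd3 8423 and 16185 bp. Over anchors listed in both libraries Sall4 held 0 and 22 and Hoxd3 3 and 20 (ratio 7.17), and both were called higher there too. The 5 called lower were Pcdh1 with 18 and 4, Efnb2 with 17 and 4, Nectin1 with 24 and 7, Mgat5b with 17 and 5, and Sept9 with 34 and 12, all with shorter promoter anchors in NCC. Over anchors listed in both libraries Sept9 held 11 and 10 (ratio 0.98), Nectin1 6 and 6 (1.08), Efnb2 5 and 3 (0.65) and Pcdh1 10 and 4 (0.43), and Mgat5b held none, so that none of these 5 was called there.

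HiChIP set against Hi-C in the same cells was lower for most tested genes. In ESC 24 of 1245 genes were called higher by FGFR1 HiChIP (1.93%) and 495 lower (39.8%), and in NCC 53 of 1679 higher (3.16%) and 764 lower (45.5%). CTCF HiChIP called 0 of 134 higher (0%) and 70 lower (52.2%) in ESC, and 0 of 105 higher (0%) and 56 lower (53.3%) in NCC. Where both libraries listed one, promoter anchors were shorter in HiChIP for 99.7% of the genes called lower by FGFR1 in ESC and for 99.3% in NCC. The same held for 93.8% and 88.3% of the tested genes not called. The median log2 ratio of anchor length in ESC was -2.07 for genes called lower and -0.946 for genes not called. In NCC these medians were -1.84 and -0.736. The lowest 5 held 0 FGFR1 HiChIP read pairs without a promoter anchor in that library, namely Enc1, Zfp36l2, Ubxn10, Sall4 and Hoxc8 in ESC, against 309, 287, 265, 244 and 232 in Hi-C. In NCC they were Irf2bpl, Kcng1, Rbm38, and Cldn4 and Mettl27, against 342, 315, 313, 238 and 238. The lowest by CTCF HiChIP, also all at 0, were Spsb1, Camk2n1, Rbm38, Ubxn10 and Rgs12 in ESC and Vegfa, Irf2bpl, Hand1, Gm11733 and Rgs12 in NCC, and of these only Rgs12 had a promoter anchor, of 3072 bp in ESC against 37247 bp in Hi-C. The genes deep enough to be tested are also mainly those with many Hi-C read pairs.

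Where the promoter anchors had the same ends in HiChIP and Hi-C, 2 of 25 genes were called higher (8%) and 1 lower (4%) in ESC, and 5 of 50 higher (10%) and 3 lower (6%) in NCC. The limit on read pairs is set on the sum of both libraries, so that a gene with few Hi-C read pairs could enter through a high HiChIP count, and these counts are given as a description. Rap2b, a small GTPase gene, and B430305J03Rik lie at 1 promoter anchor, which held 25 FGFR1 HiChIP and 81 Hi-C read pairs in ESC, a scaled ratio of 2.49 (1.52 to 3.94). In NCC it held 27 and 64, a ratio of 2.84 (1.74 to 4.52), so both cell types gave it above Hi-C. All read ends at this anchor, scaled the same way, were also higher in FGFR1 HiChIP, by 1.06 in ESC and 1.22 in NCC on the log2 scale, and their part in the ratio was not tested. In NCC Klf12, Hhex and Gm11444 were also called higher, with 22 against 61, 20 against 60 and 22 against 68. The read ends at their promoter anchors were higher in FGFR1 HiChIP too, by 0.83, 0.50 and 0.53 on the log2 scale. Ckb, the brain creatine kinase, was called lower with 2 against 102, as were Mmp17 and Kcna1 with 7 against 129 and 9 against 148. The read ends at the promoter anchors of Ckb, Mmp17 and Kcna1 had log2 ratios of -0.39, -0.82 and -0.14. Ccnd1, the G1 cyclin, was the 1 called lower in ESC, with 8 against 146. Over anchors listed in both libraries, the ratio was 2.89 in ESC and 2.09 in NCC for Rap2b, 2.51 for Klf12, 1.86 for Hhex, 2.45 for Gm11444 and 0.52 for Ckb, with too few read pairs left to be tested. Ccnd1, Mmp17 and Kcna1 were tested there, at 0.56, 0.52 and 0.50, and missed the 2-fold limit. For all genes, the highest calls in ESC were Marcks (32 against 67 in Hi-C, 3.85-fold), Adamts15 (43 against 104), Ccn2 (63 against 155), Car2 (26 against 72) and Prlr (27 against 79). In NCC they were Mbnl1 (43 against 54, 5.37-fold), Robo2 (33 against 52), A830031A19Rik (30 against 52), Pthlh (39 against 73) and Mpdz (36 against 68). All 10 had longer promoter anchors in FGFR1 HiChIP than in Hi-C, as with 10819 against 3601 bp for Marcks and 32617 against 9672 bp for Mbnl1.

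Groups of genes with known roles were described by their counts against the shares of all genes. In Hi-C, 7 of 39 genes of the retinoic acid response were called higher in NCC and 3 lower, beside 8.45% and 10.7% of all tested genes. Their median log2 ratio was 0.26, beside -0.045 over all tested genes, and the difference was not tested. Those called higher included Cyp26c1, Dhrs3, Hoxb5, Nr2f1, Rarb and Stra8. Cyp26c1 breaks down retinoic acid, Dhrs3 reduces retinal, and Rarb is a retinoic acid receptor that its ligand induces. Their read pairs in ESC and NCC were 56 and 201 for Cyp26c1, 5 and 32 for Dhrs3, and 5 and 21 for Rarb, with promoter anchors of 4735 and 15878, 1604 and 4320, and 5988 and 9233 bp. Cyp26a1 shares the NCC anchor with Cyp26c1 and held 123 and 201. With the same promoter anchor, only Nr2f1 was called, with 10 and 24 read pairs (2.40-fold, 1.11 to 5.62), among 5 tested members. Of all genes tested with the same promoter anchors, 1.76% were called higher and 3.24% lower. Over anchors listed in both libraries Nr2f1 held 7 and 11 and was not called.

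Of this list, the genes called lower were Hoxa3, Hoxa5 and Meis2. Hoxa5 fell from 172 to 36 read pairs and Hoxa3 from 254 to 125 read pairs, and Meis2, a Hox cofactor, from 146 to 63. The promoter anchors of Hoxa5 shrank from 15829 to 2543 bp, those of Hoxa3 from 24870 to 16493 bp and those of Meis2 from 12326 to 5292 bp.

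Of 35 pluripotency genes tested, Dppa5a, Esrrb and Gbx2 were called higher in NCC and Prdm14, Rif1, Sox2 and Spry4 lower. These 3 and 4 are near the shares of all genes, 8.45% and 10.7%, and the median was -0.15. Sox2 fell from 167 to 82 read pairs (ratio 0.49, 0.37 to 0.64), with promoter anchors of 8687 and 4609 bp, and its ratio was 0.49 over anchors listed in both libraries too. Esrrb, an orphan receptor of the stem cell state, rose from 81 to 218, with promoter anchors of 11470 and 27231 bp. Sall4 held 244 and 193, Mycn 221 and 180 and Tbx3 151 and 220, and none of them was called. Nor were the core factors Pou5f1, with 46 and 33, Nanog, with 70 and 57, and Klf4, with 51 and 78, which were picked out after their values were seen.

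Among 44 neural genes 2 were called higher and 9 lower, beside 8.45% and 10.7% of all genes, with a median of -0.062, and whether they differ from all genes was not tested. Lhx5, a homeobox gene of the forebrain, fell from 268 to 92 with promoter anchors of 16447 and 3487 bp, and Sox1, an early neural marker, from 199 to 88 with 8686 and 3152 bp. Dlx1, Dlx5, Hes5, Neurod4, Sox5, Zic2 and Zic5 were the other 7 called lower, and Elavl4 and Neurod1 were called higher. Sox9 held 226 and 216, Six3 207 and 179 and Irx2 161 and 176, and these were not called. Of the 11 neural genes tested with the same promoter anchors, none was called, and their ratios ran from 0.63 to 1.47. Of all genes tested with the same promoter anchors, only 1.76% were called higher and 3.24% lower. So few members cannot show whether neural genes differ from these shares.

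Of 26 mesoderm and endoderm genes, which mark cell types other than the neural one, Hand1 and Foxa1 were called higher and Eomes, Hnf4a and Afp lower, with a median of -0.16. That is near the shares of 8.45% and 10.7% of all genes. Hand1 rose from 78 to 322 read pairs with promoter anchors of 3112 and 18256 bp, and Eomes fell from 229 to 81 with 15912 and 6590 bp. Pdgfra held 193 and 220 and Gsc 143 and 107, uncalled. Of 16 genes for CTCF, cohesin and their partners 1 was called in each direction, Stag3 higher and Ldb1 lower. All tested genes had shares of 8.45% higher and 10.7% lower, so these counts do not stand out. The germ line paralog of CTCF, Ctcfl, held 95 and 84. Of 30 genes of FGF receptors, ligands and their feedback regulators, Fgf11 and Fgf7 were called higher and Fgf5, Fgf22 and Spry4 lower, with a median of 0.020, which is again near 8.45% and 10.7%. Fgfr1 itself held 212 and 203 read pairs by Hi-C, 11 and 23 by FGFR1 HiChIP and 5 and 7 by CTCF HiChIP. Fgf11, with the same promoter anchor, rose from 21 to 44, but at 0.90 over anchors listed in both libraries, and Fgf5 fell from 98 to 26 with promoter anchors of 9995 and 2034 bp.

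By FGFR1 HiChIP few members of these lists were deep enough. Of 6 retinoic acid response genes, Hoxb2, Meis1 and Nr2f2 were called higher in NCC and none lower, beside 11.5% and 12.7% of all tested genes. Of 9 neural genes, Dll1, Irx3 and Sox9 were called lower and none higher. Of 6 pluripotency genes, Sall4 was called higher, with 0 and 24 read pairs and no promoter anchor in ESC, and Sox2 lower, with 19 and 10 and promoter anchors of 6638 and 1914 bp. Of 7 genes of the FGF list, Dusp6 was called higher and Fgf18 and Spry2 lower. Neither of the 2 mesoderm and endoderm genes nor the 1 gene of the CTCF and cohesin list was called.

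Single contacts over at least 100 kb were ranked by score in each library, so their scores are a description. The ranking favours the library it was made in. The folds below use these same scores and are a description too, and their intervals do not allow for this choice. In the other libraries a contact was counted over every anchor that overlaps its 2 anchors, of whatever class. The third strongest in ESC Hi-C joined Sox2 to a distal anchor at chr3:34750943-34762264, 104.5 kb away, with Sox2 as the nearest protein-coding gene. It held 53 read pairs in ESC Hi-C and 10 in NCC Hi-C, 5 and 1 in FGFR1 HiChIP and 1 and 2 in CTCF HiChIP. Scaled, the Hi-C value was 5.30-fold higher in ESC (2.67 to 11.7). Both anchors were shorter in NCC, 4609 against 8687 bp at the promoter and 8493 against 11321 bp at the distal end, and no CTCF consensus was found in the distal anchor.

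The strongest contact of ESC Hi-C joined the shared promoter anchor of Hoxc8 and Hoxc9 to an anchor 199.0 kb away whose CTCF consensus, the first sequence above, points toward it. It held 64 read pairs in ESC and 124 in NCC by Hi-C, 1.94-fold higher in NCC (1.42 to 2.66), with anchors of 20850 and 21572 bp at the promoter and 12298 and 12406 bp at the distal end. FGFR1 HiChIP held 12 and 3, the other direction, with distal anchors of 10460 and 2712 bp, and CTCF HiChIP 0 and 0. The second, at Mtnr1a, a melatonin receptor gene, held 60 and 19 by Hi-C and 6 and 10 by FGFR1 HiChIP. In NCC an anchor of 9530 bp overlapped its ESC promoter anchor without reaching the start site window.

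NCC Hi-C was led by Nxph3, a neurexophilin gene, with 31 read pairs in ESC and 70 in NCC (2.26-fold, 1.46 to 3.56), Ptpa, with 33 and 58, and Wnt7a, with 46 and 53. Both anchors of the Nxph3 contact were longer in NCC, 14795 against 12769 bp at the promoter and 8523 against 6932 bp at the distal end. The Wnt7a contact, over 124.7 kb, also led CTCF HiChIP in both cell types, with 9 read pairs in ESC and 11 in NCC. It is the only one of these to lead in more than one assay, and its distal anchor holds the fourth sequence above, pointing toward the promoter. FGFR1 HiChIP held 0 and 7, with no FGFR1 HiChIP anchor listed at the promoter in ESC. Top1mt, second in CTCF HiChIP of both cell types, held 8 and 7 there and 15 and 12 in Hi-C, with no consensus in the distal anchor.

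FGFR1 HiChIP was led by Ccn2, a matricellular protein gene, in both cell types, but through different distal anchors. The one at chr10:24404876-24411315, 188.8 kb away, held 9 read pairs in ESC and 3 in NCC, and that at chr10:24355923-24369391, 236.4 kb away, held 2 and 9. By Hi-C the first held 16 and 10 and the second 5 and 4. The intervals of both FGFR1 ratios included 1, at 0.28 (0.048 to 1.12) and 3.76 (0.78 to 35.8), so a difference was not detectable at this depth. The other leading contacts in FGFR1 HiChIP, at Lyl1 and Asic4 in ESC and at Smoc2 and Gpc1 in NCC, held 5 to 8 read pairs, and those in CTCF HiChIP, at Cfap77 in ESC and Cebpb in NCC, held 6 and 5. The Lyl1 contact held 29 and 119 by Hi-C, with promoter anchors of 8485 and 31188 bp and distal ones of 9033 and 14205 bp.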

How the data were processed

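Per the labels and methods, the authors aligned Hi-C and HiChIP reads to mm10 with HiC-Pro, merged 2 replicates per cell type and assay, and called anchors and interactions in each library with hichipper; versions are not given in the sources used here. The deposited score is a count of read pairs per pair of anchors. The methods say that the number of valid pairs was normalized between ESC and NCC for comparisons; whether this was done before these scores were made is not given, and library totals still differ, so each library was scaled to its own total. Longer or more covered anchors gather more read pairs.

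From these counts, anchors were classed with GENCODE annotation of GRCm38 (20807 autosomal protein-coding genes, 56288 transcripts). Expectations used 20 distance bins, even on a log scale. Intervals are Poisson for sums, Wilson for shares and exact conditional binomial for ratios of read pairs. Those of log2 ratios of observed over expected between libraries are normal approximations from the read pairs of both libraries. Named genes were the 10 with most Hi-C contacts, the 5 highest and 5 lowest called per comparison, and up to 4 per list with most Hi-C contacts; others are said to be chosen after their values were seen or are the members called. Members, lists and rules were chosen with earlier results of these data known. Python 3.11.15, NumPy 2.4.6, pandas 2.3.3 and SciPy 1.17.1 were used, and the steps were tested on simulated data. Chromosomes X and Y were not used. Some genes that the rule names are not reported here.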

Additional observations from a re-analysis of the deposited data

Results flagged for a closer look

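The change of the whole class from ESC to NCC had opposite signs between assays. The log2 ratio of observed over expected was -0.0088 in Hi-C and -0.028 in FGFR1 HiChIP, and 0.031 in CTCF HiChIP. The difference between the assays was not tested, since each assay has 1 pooled library per cell type, and each of the 3 signs turned under another setting.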

How the results depend on the processing

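No paired analysis was possible because the 2 replicates of each cell type and assay were merged in the deposited tables, and for the same reason no replicate was left out. The cause of a change below was not tested. Depth limits the HiChIP gene counts, as 88.7% to 92.0% of their interactions rest on 1 read pair. Anchor length, the anchors listed in both libraries and the same promoter anchors were added as alternatives after seeing the data.

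Observed over expected, from ESC to NCC in Hi-C, then FGFR1 and then CTCF HiChIP, stayed above 1 except with anchor strength in the expectation, which gave 0.921, 0.930, 0.888, 0.887, 0.897 and 0.889. With a score of at least 2 it was 1.62, 1.60, 1.54, 1.57, 1.61 and 1.69. Without the 1% strongest anchors it was 1.37, 1.37, 1.20, 1.16, 1.21 and 1.22. With anchors classed by their midpoint it was 1.35, 1.33, 1.22, 1.19, 1.27 and 1.30, and with distal anchors at least 20 kb from any gene 1.29, 1.27, 1.15, 1.19, 1.16 and 1.21. With the 5′ end of each gene only it was 1.50, 1.49, 1.28, 1.26, 1.30 and 1.33, and with anchor length in the expectation 1.16, 1.15, 1.11, 1.09, 1.13 and 1.17.

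The log2 ratio of NCC over ESC reversed with anchor strength in Hi-C (0.014) and CTCF HiChIP (-0.013) and became -0.0019 in FGFR1 HiChIP. With a score of at least 2 it was -0.015 in Hi-C, 0.025, reversed, in FGFR1 and 0.077 in CTCF HiChIP. Without the 1% strongest anchors it reversed to 0.0048 in Hi-C and was -0.048 in FGFR1 HiChIP. Anchors classed by midpoint gave -0.019 in Hi-C, and distal anchors at least 20 kb from any gene gave 0.047, reversed, in FGFR1 and 0.067 in CTCF HiChIP.

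The log2 ratio of HiChIP over Hi-C, for FGFR1 in ESC and NCC and then CTCF in ESC and NCC, was -0.052, -0.068, -0.038 and -0.065 with anchor strength. With anchor length it was -0.067, -0.072, -0.038 and 0.028, the last reversed, and with a score of at least 2 it was -0.074, -0.035, -0.013 and 0.078, the last reversed. It was -0.148, -0.161, -0.088 and -0.036 by midpoint, and -0.157, -0.096, -0.154 and -0.073 at 20 kb from any gene. For FGFR1 it was -0.189 and -0.242 without the 1% strongest anchors and -0.228 in ESC with the 5′ end only.

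Genes called in NCC over ESC numbered 2550 in Hi-C, 204 in FGFR1 and 17 in CTCF HiChIP, and in HiChIP over Hi-C 519 and 817 for FGFR1 and 70 and 56 for CTCF. A score of at least 2 gave 20 and 1 for FGFR1 and CTCF HiChIP between the cell types and 20 and 41 for FGFR1 over Hi-C, and left no gene to test for CTCF over Hi-C. Without the 1% strongest anchors there were 91, 4, 329, 16 and 21 for FGFR1 and CTCF between the cell types, FGFR1 over Hi-C in ESC and CTCF over Hi-C in ESC and NCC. In the order of the first sentence after Hi-C, midpoint classes gave 73, 11, 274, 385, 22 and 27, the 5′ end only 104, 9, 339, 504, 33 and 29, and anchors listed in both libraries 41, 2, 132, 226, 5 and 6. Hi-C was within 1.5 times of 2550 under all of these, but not at 20 kb from any gene, with 821 and then 41, 1, 74, 120, 6 and 4, nor with at least 20 read pairs expected, with 1628 and then 22, 1, 112, 215, 4 and 2. The number of genes tested moved as well. In Hi-C the share called was 19.1% in the main setting, 33.7% by midpoint and 29.6% with a score of at least 2. It was 17.5% at 20 kb from any gene and 18.1% with at least 20 read pairs expected. Between the cell types, FGFR1 HiChIP went from 24.1% to 33.9% of 59 genes tested with a score of at least 2. In CTCF HiChIP that setting left 5 genes to test. Scaling to promoter to distal intergenic read pairs gave 301, 440, 39 and 37 in HiChIP over Hi-C. With the same promoter anchors, counts were 156, 5 and 2 between the cell types and 3 and 8 for FGFR1 over Hi-C.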
